A study of Caenorhabditis elegans with 2 samples.

Results

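The genes described here encode the histone H3 lysine 4 (H3K4) methyltransferase complexes of Caenorhabditis elegans and enzymes linked to them. They were set-16, set-2, ash-2, wdr-5.1, rbbp-5, dpy-30 and utx-1, together with tasp-1 and cbp-1, and were 9 of 19973 protein-coding genes. The genes were chosen by function, but with the peak signals and ranks of several of them already known, so their peak values are a description and no test was made on them. For each gene, peaks were taken whose summit lay from 1000 bp upstream of the annotated start to the end of the gene. Positions are on the WBcel235 (ce11) assembly.

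The bound protein was LET-526, the counterpart of mammalian ARID1 proteins and thus part of the BAF form of SWI/SNF, an ATP-driven remodeler that slides or removes nucleosomes. ChIP-seq was done on 1 group of whole young adult worms, with 2 biological replicates collected at 60 hours. All worms were of strain RW12306, whose st12306 allele places TY1, EGFP and 3xFLAG tags on let-526 by CRISPR, and they had been synchronised by starving first-stage larvae after bleaching. The antibody was against GFP, and no control library and no untagged strain were analysed here. Whole worms mix all tissues, so strong binding in few cells and weak binding in many cannot be told apart.

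In animals generally, methyltransferases of the SET1 and MLL families add methyl groups to H3K4, a mark of active promoters and enhancers. Their catalytic subunit works with a shared core of WDR5, RBBP5, ASH2L and DPY30 proteins, and the MLL3/4 form also carries the H3K27 demethylase UTX. CBP/p300 enzymes acetylate histones at enhancers and promoters. Human taspase 1, the family that tasp-1 belongs to, cleaves some MLL proteins and the general factor TFIIA. Whether the product of tasp-1 acts on that of set-16 was not tested.

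Among the 9 genes, 4 carried a LET-526 peak that passed the authors' reproducibility threshold. These were tasp-1, cbp-1 and the genes of both methyltransferases, set-16 (MLL3/4 type) and set-2 (SET1 type). None of the core subunit genes ash-2, wdr-5.1, rbbp-5 and dpy-30, nor utx-1, carried one. Of all protein-coding genes, 4.87% had a peak of the optimal list, the authors' list from both replicates, in the same kind of window. Each of the 4 genes had exactly 1 such peak, and in each it lay upstream of the start. In the promoter window, from 1000 bp upstream to 200 bp downstream of the start, the count was therefore also 4 of 9, against 3.32% of all genes. All 4 were in the thresholded list of each replicate as well, against 1.01% of genes with a promoter peak in both.

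The deposited signal of a peak is the peak caller's own value and ranks peaks only within 1 list. In the optimal list of 1200 peaks, tasp-1 had rank 1, cbp-1 rank 21, set-16 rank 39 and set-2 rank 173. The median signal of the 4 peaks was 269, with a range of 142 to 589, against a median of 92.3 for the list. Optimal peaks in promoter windows, 522 in all, had a median of 97.4. The nearest case below the threshold was rbbp-5, whose strongest peak had a signal of 66.7. The list was not filtered by signal, since 74 of its peaks had signals below that of rbbp-5. Some of the weakest of these overlapped the same replicate peaks as stronger optimal peaks, so the 74 were not all separate sites.

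**Figure D1:**
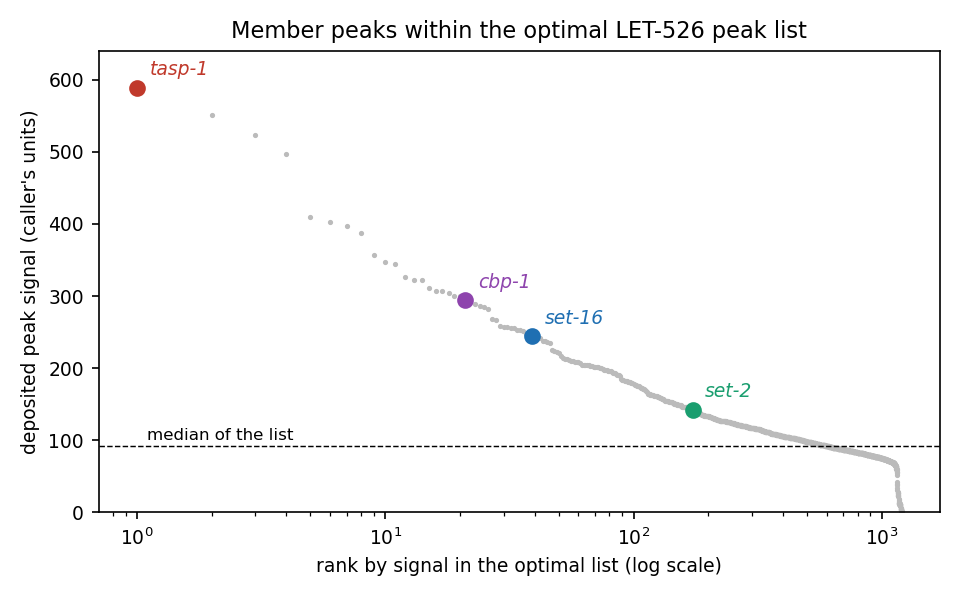
Deposited signal (caller's units) against rank on a log scale for the 1200 peaks of the optimal list, in grey, with the peaks of 4 genes as coloured points and the median of the list as a dashed line. The tasp-1 peak is the highest point, and those of cbp-1, set-16 and set-2 lie on the curve at ranks 21, 39 and 173, all above the median of 92.3.

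The sequences under these peaks are shown because they are the bound segments on which the rest rests, and that of rbbp-5 because it came nearest to the threshold among the 5 genes without a peak above it. Each is read 5′ to 3′ on the plus strand of WBcel235, without the bases of annotated exons. They span III:10759139-10759306 for tasp-1, III:13643708-13643787 for set-16, III:4930305-4930574 for set-2, III:9765549-9765679 for cbp-1 and II:6097598-6097783 for rbbp-5. Exon bases left out numbered 64 for tasp-1 and 84 for rbbp-5. Capitals mark matches, on either strand, to 11 short motifs. They were the TATA box TATAAA, the GATA factor motif GATAAG, the E-box CACGTG, the CRE-like TGACGT, the GC box GGGCGG, the heat-shock type GAANNTTC and the E2F type TTCCCGC. The others were the run CTGCGTCT, the repeat GAGAGA, the T run TTTTTTTT and the dinucleotide repeat CGCG.

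tasp-1: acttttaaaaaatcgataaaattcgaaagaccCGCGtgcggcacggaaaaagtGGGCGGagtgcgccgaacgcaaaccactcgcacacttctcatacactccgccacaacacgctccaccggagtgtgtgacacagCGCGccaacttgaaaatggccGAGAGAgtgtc
set-16: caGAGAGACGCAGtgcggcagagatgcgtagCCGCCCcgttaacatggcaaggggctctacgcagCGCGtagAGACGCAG
set-2: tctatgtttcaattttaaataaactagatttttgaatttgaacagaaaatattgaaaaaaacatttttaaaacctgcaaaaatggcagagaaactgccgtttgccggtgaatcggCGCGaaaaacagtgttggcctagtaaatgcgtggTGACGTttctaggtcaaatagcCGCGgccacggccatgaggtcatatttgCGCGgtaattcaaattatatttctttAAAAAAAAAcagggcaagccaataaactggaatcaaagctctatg
cbp-1: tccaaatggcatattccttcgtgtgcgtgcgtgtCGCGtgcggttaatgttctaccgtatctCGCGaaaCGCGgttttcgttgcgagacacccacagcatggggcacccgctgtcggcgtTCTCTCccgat
rbbp-5: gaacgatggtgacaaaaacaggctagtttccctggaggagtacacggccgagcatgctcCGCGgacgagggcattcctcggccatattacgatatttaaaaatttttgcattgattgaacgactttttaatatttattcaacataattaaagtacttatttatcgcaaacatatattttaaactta

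The set-16 segment of 80 bases held CTGCGTCT near both ends, on the minus strand, and the upstream copy overlapped a match to GAGAGA. Both tasp-1 and set-16 held GGGCGG, while set-2 held TGACGT and a run of T on the minus strand. CGCG was present in all 5 printed segments. Counted in the 201 bp centred on each summit, CGCG was in 4 of the 4 peaks above threshold, against 49.6% of the 1200 optimal summits. GAGAGA was in 3 of the 4 (tasp-1, set-16 and cbp-1), against 34.3%, and GGGCGG in 2 of the 4, against 11.6%. CTGCGTCT was in set-16 alone of the 4, against 11.8%. A match is a description of the letters and not a site of binding.

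The promoters of all 9 genes were searched from 250 bp before the start to 50 bp after it. Here CGCG was found in 7 of 9, all but utx-1 and cbp-1, against 27.9% of all promoters. GAGAGA was in 4 of 9 (tasp-1, set-16, ash-2 and cbp-1), against 21.8%, and GAANNTTC in 3 of 9 (set-16, ash-2 and dpy-30), against 18.5%. TTTTTTTT was in 3 of 9 (ash-2, wdr-5.1 and rbbp-5), against 32.5%, and TATAAA in 2 of 9 (wdr-5.1 and dpy-30), against 37.9%. GGGCGG was in 2 of 9 (tasp-1 and set-16), against 7.83%, and CTGCGTCT in 1 of 9 (set-16), against 3.54%. None of the 9 held GATAAG (in 16.7% of promoters), the E-box (5.82%), TGACGT (10.3%) or the E2F type (3.22%). CGCG was thus common to promoters with and without a peak above threshold.

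The bound segments differed in base composition. In the 201 bp at the summit, GC content was 56.2% at tasp-1, 57.2% at set-16 and 52.2% at cbp-1. It was 39.3% at set-2 and 38.3% at the peak of rbbp-5. Optimal summits had a median of 45.3%, with quartiles of 40.8 and 50.25%, and starts of protein-coding genes a median of 35.8%. So 3 of the 4 peaks lay above the upper quartile of optimal summits and set-2 below the lower quartile.

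The 2 methyltransferase genes differed in the strength of their peaks. At set-16 (WBGene00011729, III:13643916-13656637, plus strand), which encodes the worm MLL3/4-type enzyme, the peak had a signal of 244 in the optimal list. Replicate 1 gave it a signal of 140 and replicate 2 one of 106, at ranks 39 of 585 and 41 of 421 in their thresholded lists. At set-2 (WBGene00004782, III:4922427-4930204, minus strand), which encodes the SET1-type enzyme, the peak had a signal of 142 in the optimal list. Replicate 1 gave it a signal of 75.6 and replicate 2 one of 60.7, at ranks 224 of 585 and 206 of 421. The set-16 peak thus ranked above the set-2 peak in each of the 3 lists.

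The irreproducible discovery rate (IDR) estimates how likely a peak is not to be repeated between 2 sets of reads, and the thresholded lists reached down to a score of 830, near an IDR of 0.01. The ranked lists hold the peaks compared before that threshold, 81275 in the one that holds all optimal peaks and 78700 in the one that holds all conservative peaks, a stricter set. For set-16 the IDR was 1.16e-05 in the optimal ranked list, 1.65e-05 in the conservative one, 1e-05 in replicate 1 and 3.08e-05 in replicate 2. For set-2 it was 0.000213, 0.000227, 0.000933 and 0.00554 in the same lists, with the highest value in replicate 2. Both genes were below 0.01 in every list.

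The peak of set-16 lay in the 345 bp between 2 genes that start in opposite directions. Its summit was 155 bp upstream of the set-16 start and 191 bp upstream of the start of drr-2, which encodes a protein related to the translation factor eIF4H. The peak therefore lay in the promoter windows of both, and its position does not assign it to either gene. The summit was 184 bp upstream of set-16 in replicate 1 and 140 bp upstream in replicate 2, 44 bp apart. Such sharing between 2 or more protein-coding genes applied to 158 of the 522 optimal promoter peaks (30.3%).

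The peak of set-2 lay in 397 bp between the set-2 start and a gene on the same strand that ends there. It was in the promoter window of set-2 and of no other annotated gene. The optimal summit was 236 bp upstream of the gene start, with 266 bp in replicate 1 and 234 bp in replicate 2. A shorter set-2 transcript starts within the gene, 4340 bp downstream of that summit, and no thresholded list held a further peak at set-2.

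At tasp-1 (WBGene00010480, III:10759307-10763021, plus strand), the peak had a signal of 589 in the optimal list, 329 in replicate 1 and 249 in replicate 2. It had rank 1 of 585 in the thresholded list of replicate 1 and rank 2 of 421 in that of replicate 2. Its IDR was 1e-05 in all 4 ranked lists, the lowest value that they give. The ranked lists held 7 stronger peaks than this, which the thresholded lists left out, so tasp-1 had rank 8 in both pooled ranked lists. In the ranked lists of replicates 1 and 2 its ranks were 6 and 13. For cbp-1 and set-16 the optimal ranked list held 23 and 27 more stronger peaks than the thresholded one, and for set-2 it held 57 more. Why the thresholded lists left out these stronger peaks was not tested, so ranks in the optimal list hold for that list only.

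The tasp-1 summit lay 49 bp upstream of the gene start, with 46 bp in replicate 1 and 61 bp in replicate 2. Annotated transcripts of tasp-1 start at 3 places, and the summit was 49, 127 and 411 bp upstream of them. The divergent gene K01G5.10 starts 736 bp from the summit and shares the promoter window, with 784 bp between the genes. The nearest other optimal summit was 16576 bp away.

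At cbp-1 (WBGene00000366, III:9766509-9774825, plus strand), which encodes the CBP/p300 acetyltransferase, the peak had a signal of 294 in the optimal list. It had a signal of 175 in replicate 1 (rank 22 of 585) and 112 in replicate 2 (rank 34 of 421). The IDR was 1e-05 in both pooled lists and in replicate 1 and 2.3e-05 in replicate 2. This peak lay farther from its gene than the other 3, with its summit 910 bp upstream of the start and 913 bp upstream in each replicate. It fell near the edge of the promoter window. With a window from 500 bp upstream to the gene end, cbp-1 had no peak and the count was 3 of 9, against 4.17% of all genes.

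The cbp-1 peak also lay 490 bp upstream of the noncoding RNA gene R10E11.10, which runs in the other direction. Among protein-coding genes the cbp-1 start was the nearest. Annotated cbp-1 transcripts start 910 to 917 bp from the summit, so no annotated cbp-1 start lay closer.

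**Figure D2:**
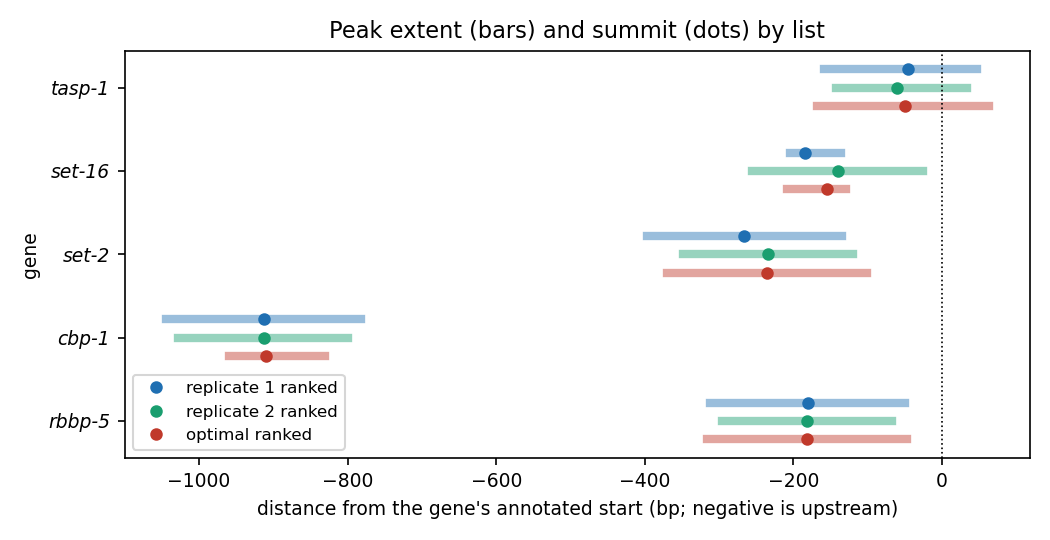
Peak extent (bars) and summit (dots) for 5 genes in the ranked lists of replicates 1 and 2 and the optimal ranked list, against distance from the annotated start in bp, with negative values upstream. Summits of tasp-1, set-16, set-2 and rbbp-5 lie within 266 bp of the start, and that of cbp-1 lies 910 bp upstream.

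Summits of the replicates were 0 bp apart at cbp-1, 15 bp at tasp-1, 32 bp at set-2 and 44 bp at set-16. Over the 1170 optimal peaks that could be matched in each replicate, the median distance was 27 bp. The cbp-1 and tasp-1 summits were thus closer than the median and those of set-2 and set-16 farther apart. Of optimal peaks, 58.3% had summits as close as set-2 or closer, and 70.8% as close as set-16 or closer. At rbbp-5, below the threshold, the replicates' summits were 1 bp apart, a distance that 5.73% of optimal peaks had or were below.

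Peak widths differed as well. The optimal list gave 270 bp to 1123 of 1200 peaks (93.6%), and 76 were narrower. The set-2 peak was 270 bp wide, while those of tasp-1, cbp-1 and set-16 were 232, 131 and 80 bp wide. The narrow set-16 peak was 70 bp wide in replicate 1 and 230 bp in replicate 2.

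**Figure D3:**
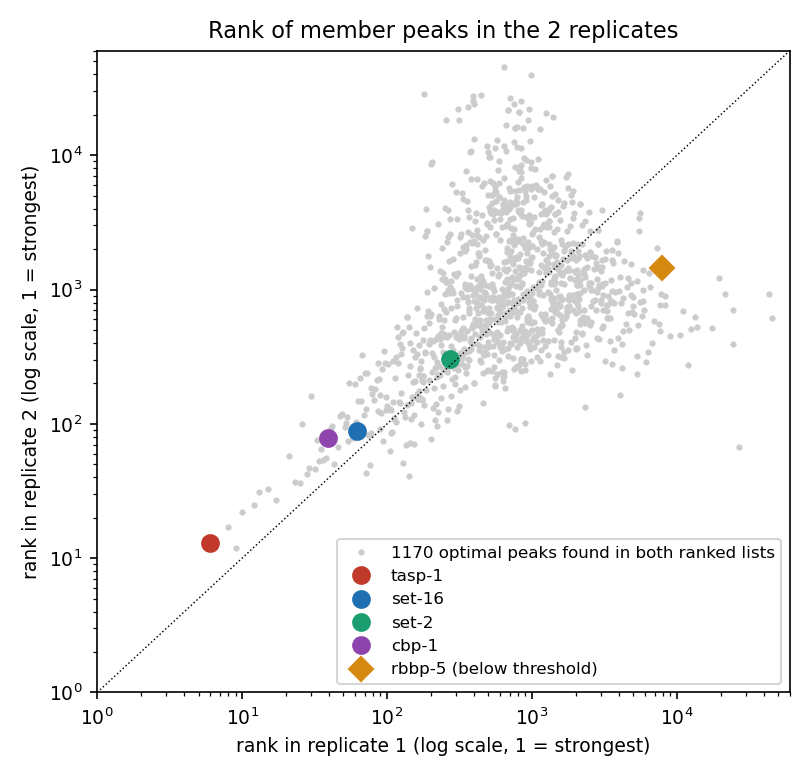
Rank in the ranked list of replicate 1 against rank in that of replicate 2, both on log scales with 1 the strongest, for 1170 optimal peaks in grey and 5 genes in colour, with equal ranks dotted. The peaks of tasp-1, cbp-1, set-16 and set-2 lie near the dotted line, and rbbp-5 (diamond) has ranks of 7843 and 1442.

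Among the core subunits, rbbp-5 (WBGene00017683, II:6097830-6099645, plus strand) came nearest to the threshold. Its strongest peak had a signal of 66.7 and rank 2001 of 81275 in the optimal ranked list. The IDR was 0.0639 there and 0.041 in the conservative ranked list, above the 0.01 of the thresholded lists. In replicate 1 the peak had a signal of 28.5, rank 7843 of 46104 and an IDR of 0.365. In replicate 2 it had a signal of 37.0, rank 1442 of 49296 and an IDR of 0.82. The higher rank thus went with the higher IDR.

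The rbbp-5 peak, like that of set-16, lay between divergent genes, here 232 bp apart. Its summit was 52 bp upstream of tpp-2, which encodes tripeptidyl peptidase II, and 181 bp upstream of rbbp-5. In position it was nearer to the start of tpp-2.

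For the other core subunits no peak came near the threshold. The strongest peak of dpy-30 (WBGene00001088, V:12191519-12192385), whose product also serves in worm dosage compensation, had a signal of 42.6 in the optimal ranked list and an IDR of 0.324. It lay 803 bp upstream. In replicate 1 the strongest peak had a signal of 25.9 and an IDR of 0.758, and replicate 2 listed no peak in the window.

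At wdr-5.1 (WBGene00006474, III:3705285-3706784), a WD40-repeat subunit gene, the strongest peak had a signal of 34.5 in the optimal ranked list and an IDR of 0.826. It lay 132 bp downstream of the start. The only peak of replicate 1 was 296 bp upstream (signal 16.03, IDR 0.896) and the only one of replicate 2 was 484 bp downstream (signal 23.0, IDR 0.671). The replicates thus listed their peaks at different positions, the first outside the gene and the other within it.

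At ash-2 (WBGene00012458, II:11979838-11989050), the ASH2L ortholog, the optimal ranked list held a single peak, 795 bp upstream (signal 27.04, IDR 0.826). Replicate 1 had its strongest peak 311 bp upstream (signal 24.4, IDR 0.773), and replicate 2 listed none. The window of ash-2 thus held 0.0979 ranked peaks per kb, against 0.811 per kb over all chromosomes. The other 8 genes had 1.07 to 1.82 per kb. The value for all chromosomes includes sequence between genes, and no density over the windows of all genes was computed, so it is not a like background.

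The demethylase gene utx-1 (WBGene00017046, X:8557146-8563238) had its strongest peak within the gene, 3255 bp downstream of the start. Its signal was 44.4 and its IDR 0.291 in the optimal ranked list. In replicate 1 the strongest peak was 255 bp upstream (signal 36.4, IDR 0.698), and in replicate 2 it was 1127 bp downstream (signal 18.8, IDR 0.916). The strongest peak thus differed between these 3 lists, although each of them held a peak near 3255 bp downstream, at 3255 bp in replicate 1 and 3310 bp in replicate 2.

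**Figure D4:**
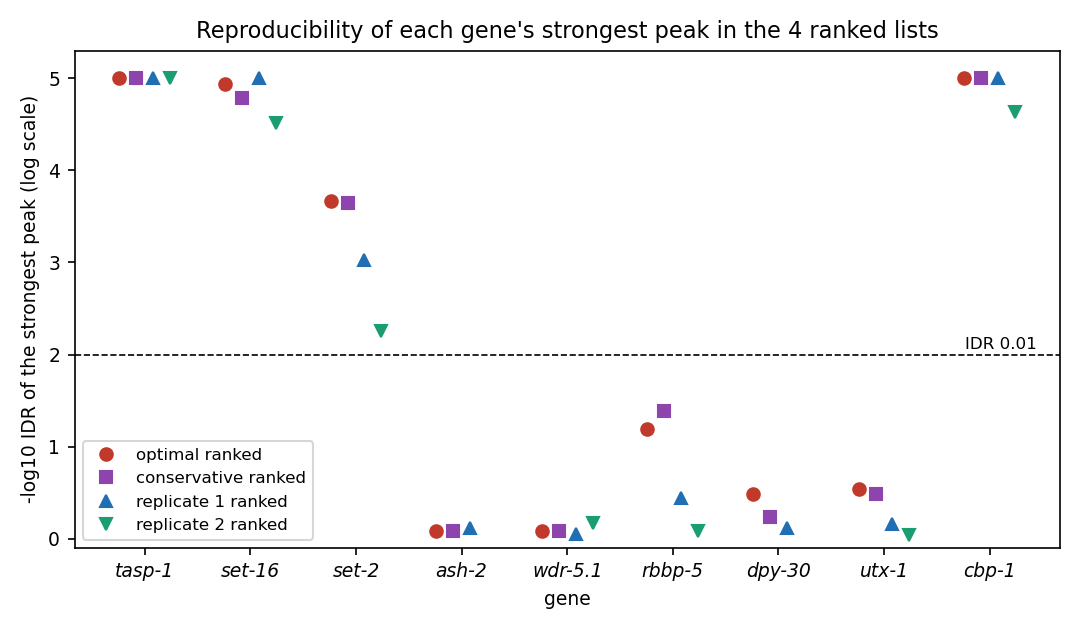
The −log10 of the IDR of each gene's strongest peak in the 4 ranked lists, with a dashed line at an IDR of 0.01; a missing symbol means that the list held no peak in the window. The 4 genes tasp-1, set-16, set-2 and cbp-1 lie above the line in every list, rbbp-5 lies below it at 0.041 to 0.82, and the other genes lie near the bottom.

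Presence in the ranked lists alone was common. A ranked peak of each replicate lay in the window of 7 of the 9 genes, all but ash-2 and dpy-30, against 64.5% of all genes. In the promoter window the same held for 5 of 9 (tasp-1, set-16, set-2, rbbp-5 and cbp-1), against 31.2%. The signals set the genes further apart. In the optimal ranked list 13089 of all 19973 genes had a promoter peak, with a median signal of 33.8 for the strongest of each gene. All 9 genes were among them, with a median of 66.7, and 7 of 9 were above 33.8.

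By that measure no other gene was above tasp-1, and 20 were above cbp-1, 32 above set-16 and 139 above set-2. A shared peak counted for each of its genes, so K01G5.10 was level with tasp-1 and drr-2 with set-16. For rbbp-5 the number above was 935, for dpy-30 3724 and for wdr-5.1 6329. It was 8985 for utx-1 (27.5) and 9174 for ash-2 (27.04), both below the median of 33.8. In replicate 1, 9455 of all 19973 genes had a promoter peak, with a median of 22.5. There utx-1 (36.4) and ash-2 (24.4) were above the median, and 8 of 9 genes were, all but wdr-5.1. In replicate 2, 5 of 9 genes had a promoter peak, against 10012 of all 19973 genes, and all 5 were above its median of 19.4. In replicate 1 alone, 0, 19, 37 and 168 genes were above tasp-1, cbp-1, set-16 and set-2. In replicate 2 alone these numbers were 1, 26, 36 and 165, so the order of the 4 was the same in each replicate.

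**Figure D5:**
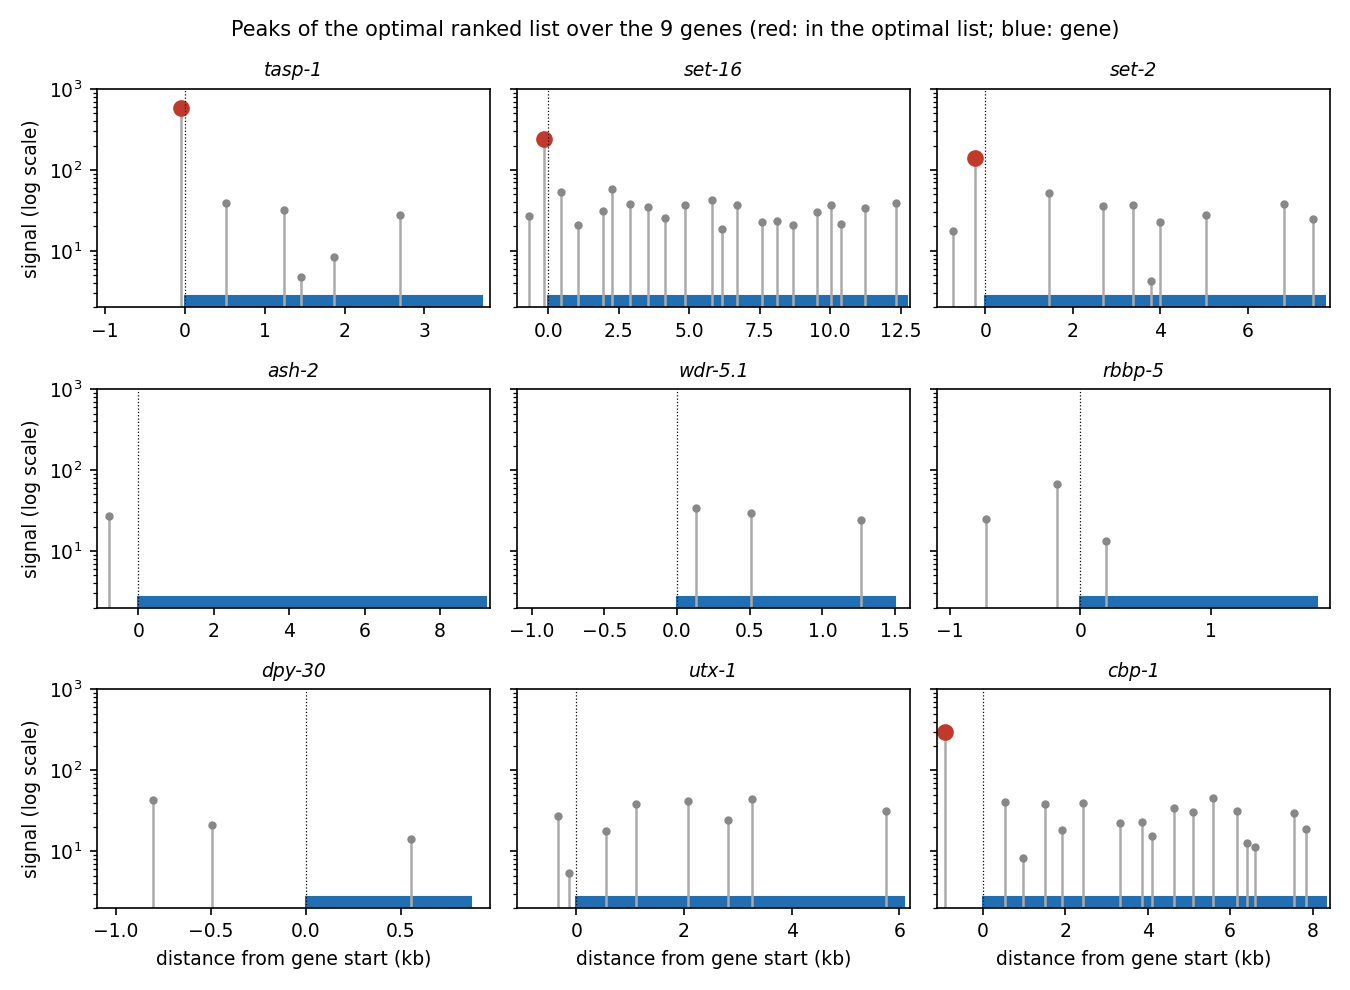
Peaks of the optimal ranked list at the 9 genes, as signal on a log scale against distance from the gene start in kb, with the gene as a blue bar and red points for peaks of the optimal list. At tasp-1, set-16, set-2 and cbp-1 a single red peak stands upstream of the start above many weak peaks along the gene.

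Within the gene bodies no peak passed the threshold. After the upstream peak, the strongest peak of tasp-1 lay 517 bp downstream of the start (signal 38.9, IDR 0.152). For set-16 it lay 2254 bp downstream (58.2, IDR 0.296), for set-2 1453 bp downstream (51.2, IDR 0.305) and for cbp-1 5586 bp downstream (46.1, IDR 0.366). Over 21 ranked peaks at set-16 and 17 at cbp-1, the upstream peak was thus the only one of the thresholded list.

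All 4 genes with a peak lay on III, which held 5 of the 9 genes. The fifth, wdr-5.1, had none above threshold, and neither had the 2 genes on II, the 1 on V and the 1 on X. On III 123 of 2640 protein-coding genes (4.66%) had an optimal promoter peak. Between the 4 peaks and the nearest other optimal summit lay 16576 to 54296 bp, against a median of 14150.5 bp over the list.

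Related genes on 5 lists were looked up by name, and 28 of 29 were found. No promoter peak of the optimal list was found among 6 genes of accessory subunits and paralogs of the complexes. None was found among 4 H3K4 demethylase genes, nor among 6 genes of H3K27 methylation and its removal. Of 5 genes for H3K36 and H3K9 methyltransferases, 2 had one. The peak of met-1, which encodes an H3K36 methyltransferase, had a signal of 102 (52.7 in replicate 1 and 60.4 in replicate 2), 60 bp upstream of the start, and was in both replicates' thresholded lists.

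The peak of lin-59, which encodes an ASH1-type methyltransferase, had a signal of 98.9 (70.4 in replicate 1 and 32.7 in replicate 2), 388 bp upstream, and was in that of replicate 1. Of 7 acetyltransferase genes, hat-1 had one (signal 104, 63.3 in replicate 1 and 44.2 in replicate 2), 210 bp upstream, in neither replicate's list. In all 3 of 28 (10.7%) had a promoter peak, against 3.32% of all genes, with ranks of 415 to 489 of 1200. The peaks of set-2, set-16, cbp-1 and tasp-1 ranked above all 3.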

How the data were processed

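ChIP-seq of LET-526-EGFP was measured in 2 replicates of 1 group. The authors deposited peak lists on ce11, ranked and thresholded by IDR, for each replicate and for both together, per the labels and the file records. Each peak has a deposited signal, a deposited score of at most 1000 and, in the ranked lists, a deposited −log10 IDR. The sources used here name no aligner or peak caller. The ranked lists made from both replicates each hold 8 more columns of per-replicate values (16 in all), which no name ties to a sample and which were not used. The files hold no reads, so the depth is unknown and no interval was computed. Of the ranked lists from both replicates, the one holding all optimal peaks was called optimal and the one holding all conservative peaks conservative.

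Summits were compared with Ensembl release 115 genes, and sequences were read from the RefSeq WBcel235 genome (Python 3.11.15, pandas 2.3.3). A pooled peak was matched to a replicate's strongest peak overlapping it by at least 1 bp. Signals were ranked within a list only, and signal values were compared across lists only for whether optimal and conservative ones were the same. Ranks, summit positions and widths were also set side by side between lists. The counting was tested on simulated data. All 9 genes were named, with genes that share a promoter window with them and listed genes with an optimal peak. The members, lists and motifs were chosen with earlier results of these data known. The gene wdr-82 was not matched by name.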

Additional observations from a re-analysis of the deposited data

How the results depend on the processing

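The count of 4 of 9 genes, the same genes each time, stayed at 4 with the conservative list (4.52% of all genes). It was 4 with each replicate alone (1.88 and 2.53% for replicates 2 and 1) and with peaks above the median signal (2.78%). Overlap of 1 bp (5.3%), 2000 bp upstream (6.08%) and the nearest start only (3.41%) gave 4 as well. The count fell to 3 with 500 bp upstream, without cbp-1, against 4.17% of all genes. The 4 genes' median percentile by signal was 97.6 in the optimal list, 97.3 in the conservative list and 96.3 among promoter peaks, and from 91.1 to 94.8 with 1 replicate left out. Lists of 1 replicate are shorter, and the cause was not tested. Of the 7 genes with a ranked peak in both replicates, 4 were left at an IDR of 0.05 or below. The share of all genes fell from 64.5 to 2.18% with the same change. The 3 related genes became 1 (met-1) without replicate 1 and 2 (met-1 and lin-59) without replicate 2. The share of all genes fell from 3.32% to 1.35 and 1.83% in the same settings. Each gene's strongest peak had the same position and signal in the conservative as in the optimal lists. These lists thus held the same peak, and its equal signal does not show that the signal is stable. Signals of single replicates are on scales of their own, and nothing was concluded from how they differ from these. No paired analysis was possible because there was 1 group. With 2 replicates, no control and unknown depth, absence of a peak above threshold is not absence of binding.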

Other observations

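A run of 6 bases, GTGCGG, was seen in the printed segments of tasp-1, set-16 and cbp-1 after they had been read, and it was searched for on both strands. It was in the 201 bp at the summit of 3 of the 4 genes with a peak above threshold, all but set-2, and in 105 of 1200 optimal summits (8.75%). In the promoter sequences it was in 861 of 19973 (4.31%). The run was chosen from these peaks, so its count among them supports nothing.

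In the optimal list the GC-rich peaks were also the narrow ones and the stronger ones, at ranks 1, 39 and 21 against 173 for set-2. Those of tasp-1, set-16 and cbp-1, at 52.2 to 57.2% GC, were 80 to 232 bp wide, and that of set-2, at 39.3% GC, was 270 bp wide. The widths did not all hold in single replicates. The cbp-1 peak was 264 bp wide in replicate 1 and 230 bp in replicate 2, the median widths of those lists. The set-16 peak was also 230 bp wide in replicate 2. This is a description of 4 peaks.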
